A study of Homo sapiens with 18 samples.

Results

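Knockdowns of both subunits of the MondoA and MLX complex were set directly against each other in cells given doxorubicin. RPE-1 cells, a human retinal pigment epithelial line immortalized with telomerase, had received an siRNA against MLXIP, the gene that encodes MondoA (siMondoA), or an siRNA against MLX, its partner (siMlx). Both groups had then been given doxorubicin (DXR), a drug that breaks DNA, at 150 ng/ml for 3 days, after 2 days of transfection with Lipofectamine RNAiMax. The comparison holds 3 siMondoA + DXR libraries and 3 siMlx + DXR libraries, 6 of the 18 libraries of the series, chosen by their labels, and it covers 13676 expressed genes of the 33121 listed. The other 12 libraries are cells with a control siRNA and DXR (siControl + DXR) and the 3 siRNAs without DXR, with 3 libraries each. The siRNA sequences are not used here, and the labels do not say that replicates were separate cultures. The p-values therefore measure only the spread between these libraries, which may be technical. Library names carry the tags D5 for DXR and D0 for untreated cells, which the labels do not explain, so the harvest day of the untreated cells may differ.

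MondoA is a basic helix-loop-helix transcription factor that senses glucose 6-phosphate and binds DNA only together with MLX. The pair recognises carbohydrate response elements, in which a pair of E-box-like sites lie a few bases apart, and TXNIP and ARRDC4 are its best known target genes. MLX also pairs with ChREBP, MNT, MXD1 and MXD4, so its loss touches more complexes than the loss of MondoA. Interferons signal through the kinases JAK1 and TYK2 to a complex that holds STAT2 and IRF9 and binds the interferon-stimulated response element in the promoters of antiviral genes. DNA-damaging drugs are known to raise interferon-stimulated genes in many cell types.

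Each target was lowest under its own siRNA. MLXIP (chromosome 12, 122078722 to 122147347 on GRCh38, plus strand) was at 1.63, 2.58 and 2.86 CPM (counts scaled to library size) in the siMondoA + DXR libraries, against 69, 67.5 and 72.6 CPM in the siMlx + DXR libraries. MLX (chromosome 17, 42567068 to 42573239, plus strand) was at 43.5, 42.6 and 45.4 CPM in siMondoA cells, against 5.7, 4.93 and 5.94 CPM in siMlx cells. Neither gene's libraries overlapped between the groups, and the siControl + DXR libraries lay at 64, 63.2 and 66.6 CPM for MLXIP and at 26.4, 26.8 and 26.4 CPM for MLX. On the log2 scale the siMondoA over siMlx ratio was -4.88 (SE 0.13) for MLXIP and 2.99 (SE 0.08) for MLX in edgeR's quasi-likelihood fit. Total counts ran from 18392192 to 20050175 in siMondoA + DXR and from 18342883 to 20710082 in siMlx + DXR libraries. In a principal component analysis of the 9 DXR libraries, the first component held 45.3% of the variance and placed siMondoA at -32.5 to -26.7, siMlx at 32.2 to 36.1 and siControl at -7.62 to -1.56.

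**Figure D1:**
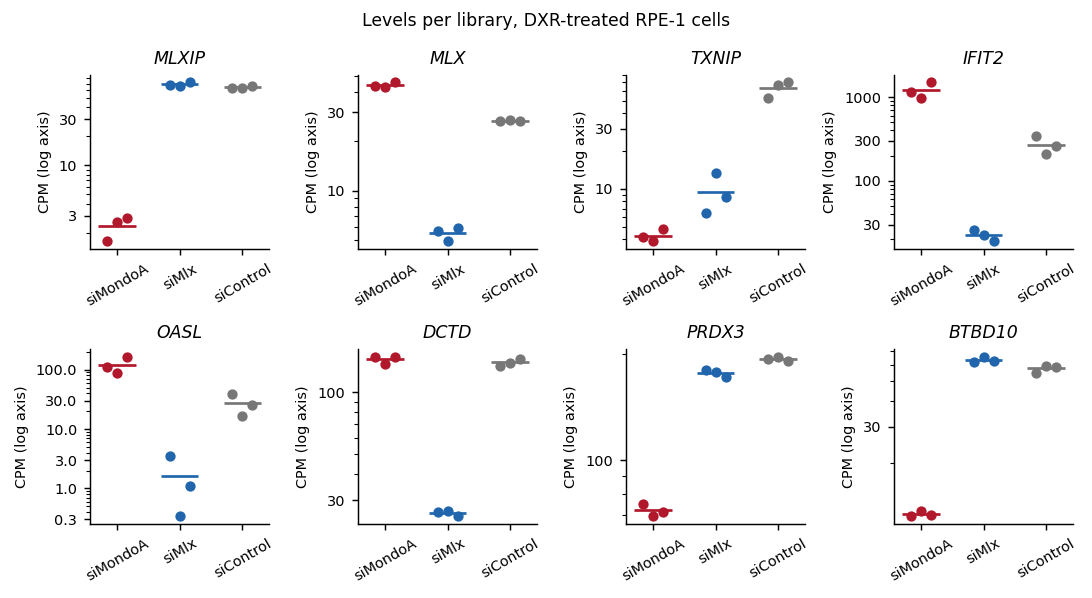
Level of 8 genes in each DXR-treated library (CPM, log axis); points are libraries and bars are group means, with siMondoA, siMlx and siControl from left to right. MLXIP and MLX are low only under their own siRNA, IFIT2 and OASL are highest with siMondoA and lowest with siMlx, and DCTD, PRDX3 and BTBD10 sit near the siControl level in 1 of the 2 knockdowns.

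Promoters are shown only for genes picked because a window holds a motif match, so the matches are not a result. They come from genes whose levels carry the interferon pattern and from TXNIP, the classical target of the complex. Each is the RefSeq window on GRCh38.p14 from 250 bases before to 50 bases after the gene's start, in the direction of transcription, with the motif found by a letter search of both strands in capitals. In 5 interferon-induced genes the capitals mark the core of the interferon-stimulated response element, GAAANNGAAA or its reverse complement. They are GBP4 (chr1:89198893-89199192, minus strand), TNFSF10 (chr3:172523381-172523680, minus), RTP4 (chr3:187368135-187368434, plus), ISG20 (chr15:88638766-88639065, plus) and HERC5 (chr4:88456869-88457168, plus). RTP4 holds 2 matches, and HERC5 holds 3, of which the first pair overlap. In TXNIP (chr1:145996530-145996829, minus) the capitals mark the carbohydrate response element, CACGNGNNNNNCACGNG on either strand, which begins 88 bases before the start. No window was available for IFIT2, OASL, OAS2, MX2 and SLC15A3.
GBP4: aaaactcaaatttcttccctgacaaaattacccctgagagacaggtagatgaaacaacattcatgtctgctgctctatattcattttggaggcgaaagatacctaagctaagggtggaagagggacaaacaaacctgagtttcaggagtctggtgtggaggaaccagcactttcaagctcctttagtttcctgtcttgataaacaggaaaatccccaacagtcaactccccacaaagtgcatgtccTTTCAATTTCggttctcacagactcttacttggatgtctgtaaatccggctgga
TNFSF10: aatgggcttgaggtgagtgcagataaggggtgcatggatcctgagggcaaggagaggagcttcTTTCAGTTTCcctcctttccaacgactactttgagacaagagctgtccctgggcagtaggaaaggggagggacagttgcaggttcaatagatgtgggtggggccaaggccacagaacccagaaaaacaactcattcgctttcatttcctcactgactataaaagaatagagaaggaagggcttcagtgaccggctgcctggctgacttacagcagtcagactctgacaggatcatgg
RTP4: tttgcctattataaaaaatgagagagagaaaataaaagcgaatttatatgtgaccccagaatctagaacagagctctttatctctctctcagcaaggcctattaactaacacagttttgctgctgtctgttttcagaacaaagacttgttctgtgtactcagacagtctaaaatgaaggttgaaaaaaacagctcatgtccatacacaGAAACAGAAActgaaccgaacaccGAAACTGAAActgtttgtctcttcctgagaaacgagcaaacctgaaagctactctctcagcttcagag
ISG20: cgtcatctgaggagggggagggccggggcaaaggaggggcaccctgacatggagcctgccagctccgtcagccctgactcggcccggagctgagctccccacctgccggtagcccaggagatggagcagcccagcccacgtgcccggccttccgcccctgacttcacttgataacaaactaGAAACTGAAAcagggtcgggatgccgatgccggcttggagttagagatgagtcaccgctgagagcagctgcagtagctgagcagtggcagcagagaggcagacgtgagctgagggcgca
HERC5: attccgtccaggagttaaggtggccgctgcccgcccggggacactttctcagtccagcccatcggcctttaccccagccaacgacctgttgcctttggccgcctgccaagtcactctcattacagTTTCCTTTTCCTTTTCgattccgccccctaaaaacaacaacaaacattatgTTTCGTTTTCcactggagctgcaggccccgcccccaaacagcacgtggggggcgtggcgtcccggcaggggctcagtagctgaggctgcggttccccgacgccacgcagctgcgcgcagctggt
TXNIP: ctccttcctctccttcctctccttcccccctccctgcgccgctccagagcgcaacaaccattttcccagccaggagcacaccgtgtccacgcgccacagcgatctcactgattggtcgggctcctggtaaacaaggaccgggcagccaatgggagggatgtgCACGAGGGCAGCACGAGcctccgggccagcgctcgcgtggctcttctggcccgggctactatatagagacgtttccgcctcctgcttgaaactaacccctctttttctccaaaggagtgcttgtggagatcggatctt

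The knockdowns left DXR-treated cells with widely different RNA levels. Of 13676 genes, 2591 (18.9%) were higher and 2740 (20.0%) lower (39.0% in all) in siMondoA than in siMlx cells at a Benjamini-Hochberg adjusted p under 0.05. Differences of at least 2-fold leaned upward, with 503 genes higher (3.68%) and 238 lower (1.74%). All 3 siMondoA libraries lay above all 3 siMlx libraries for 3121 genes (22.8%) and below them for 3348 (24.5%). Of the 503 genes, 461 (91.7%) are annotated as protein-coding, against 202 (84.9%) of the 238 and 12295 (89.9%) of all tested. At 8-fold or more, 56 genes were higher and 1, MLXIP, was lower, and 25 of the 56 (44.6%) are in 4 interferon-related lists that hold 115 (0.841%) of the genes tested. The mean of siControl + DXR cells lay between the knockdowns for 429 of the 503 (85.3%), 183 of the 238 (76.9%) and 5860 of all genes (42.8%). It was nearer to siMondoA than to siMlx for 387 of the 503 (76.9%) and for 76 of the 238 (31.9%).

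Markers of the labelled cell type were present in part. Of 24 retinal pigment epithelium markers, 13 were expressed enough to test, 5 rose and 1 fell (median log2 ratio 0.15). Over all tested genes 18.9% rose and 20.0% fell. The melanocyte and pigment epithelium factor MITF was at 29.2, 29.7 and 33 CPM in siMondoA and 18.6, 20.9 and 20.3 CPM in siMlx libraries (log2 0.62, adjusted p = 9.51e-06), and the keratin KRT18 and the membrane linker ezrin (EZR) rose by 0.59 and 0.26. The risers numbered 3 without siMlx library 3 or siMondoA library 3, when the phagocytosis receptor MERTK (log2 1.07) did not pass, and the fallers numbered 0 without siMlx library 2, siMondoA library 1 or siMondoA library 2 and 2 with the replicate number as a block. RLBP1, DCT and SLC16A8 had at most 3 counts over the 6 libraries, and RPE65, the visual cycle isomerase, had 8 counts in siMondoA and 35 in siMlx cells. BEST1 had 29 counts in siMondoA and 55 in siMlx cells, and TYRP1 had 44 and 55. PAX6 averaged 16.3 CPM in siMondoA and 19.5 CPM in siMlx cells, and OTX2 averaged 12.7 and 11.5 CPM. The 24 markers summed to 2470, 2503 and 2508 CPM in siMondoA and to 2140, 2093 and 2037 CPM in siMlx libraries. KRT8, KRT18, EZR and SLC16A3 made up most of these sums. Their means were 750, 546, 490 and 448 CPM in siMondoA and 615, 364, 409 and 457 CPM in siMlx cells. Of 13 blood and endothelial markers, 6 were tested and 1 rose, the lysosomal CD68. The 13 summed to 110, 130 and 146 CPM in siMondoA and to 84, 99.7 and 98.2 CPM in siMlx libraries. CD68 made up most of this, with a mean of 123 CPM in siMondoA and 88.5 CPM in siMlx cells. PTPRC, the pan-leukocyte marker, averaged 1.12 CPM in siMondoA and 0.959 CPM in siMlx cells, the endothelial PECAM1 averaged 0.309 CPM in siMondoA and 0.349 CPM in siMlx cells (log2 -0.16, adjusted p = 0.865), and CD3E, ITGAM, HBB and HBA1 had at most 3 counts. The 12 fibroblast markers summed to 3762, 4167 and 3957 CPM in siMondoA and to 4506, 4909 and 4603 CPM in siMlx libraries. Of them 10 were tested, and 2 rose and 2 fell (median -0.09). The growth factor receptor PDGFRA had 925 counts in siMondoA and 486 in siMlx cells (log2 0.93), and the matrix proteoglycan DCN 530 and 313 (log2 0.75, adjusted p = 0.0347). THY1 fell by 0.45 (adjusted p = 2.42e-06) and the protease FAP by 0.55. The risers numbered 1 without siMlx library 2, siMlx library 3 or siMondoA library 1, when DCN did not pass (adjusted p = 0.152 to 0.227), nor did it in fits of 9 or 6 libraries (adjusted p = 0.0597 and 0.0667), and the fallers numbered 5 with the replicate block in the 6 libraries. VIM, the intermediate filament vimentin, made up most of the sums, with a mean of 3161 CPM in siMondoA and 3648 CPM in siMlx cells, and had overlapping libraries and a log2 ratio of -0.21 (adjusted p = 0.0807), and -0.19 (adjusted p = 0.000228) with the replicate number as a block in the 6 libraries. In bulk RNA, fewer cells of a kind and less RNA per cell cannot be told apart, and the part of these markers in the results was not tested.

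Within the network of factors around MAX and MLX, 1 of 11 tested members rose, MLX itself, and 5 fell, MLXIP among them. MLX and MLXIP are the siRNA targets, so the design set their directions. Shares over all tested genes were 18.9% and 20.0%, and the median log2 ratio was -0.37 against -0.01 over all genes. The median was -0.13 without siMlx library 3. MXD4, a repressor that pairs with MAX or MLX, was at 119, 118 and 118 CPM in siMondoA, against 181, 166 and 184 CPM in siMlx cells, a log2 ratio of -0.58 (SE 0.07, adjusted p = 2.91e-06). MXD1 and MNT, of the same repressor family, fell by 0.45 and 0.37 on the log2 scale, and the oncogene MYC fell by 0.48.

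Glucose-responsive targets of MondoA moved in both directions. Of 13 tested, 4 rose and 4 fell (median log2 ratio -0.08), where 18.9% of all tested genes rose and 20.0% fell. The counts dropped to 2 risers without siMlx library 2 and to 2 fallers without siMondoA library 2. TXNIP, which binds thioredoxin and slows glucose uptake, was at 4.15, 3.85 and 4.85 CPM in siMondoA cells, at 6.4, 13.3 and 8.64 CPM in siMlx cells and at 52.5, 66.7 and 69.8 CPM in siControl cells. Every library of either knockdown was below every siControl library, and the siMondoA libraries lay below the siMlx libraries (log2 -1.15, SE 0.27, adjusted p = 0.00206). The related arrestin ARRDC4 had 20 counts over the siMondoA libraries and 77 over the siMlx libraries, which overlapped in CPM, with a log2 ratio of -1.92 (adjusted p = 0.00924). That call was lost without siMlx library 2 (-1.60, adjusted p = 0.0552) or siMondoA library 2 (-1.53, adjusted p = 0.0539), and the ratio was -2.50 without siMondoA library 1. ARRDC3, another arrestin of this kind, rose, with 78.5, 80 and 64.1 CPM in siMondoA against 21.7, 30.2 and 25.3 CPM in siMlx cells (log2 1.53, SE 0.12, adjusted p = 3.96e-09), while siControl libraries lay at 74.1, 74 and 61.8 CPM.

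Interferon-stimulated genes were higher in siMondoA cells throughout. All 50 listed effectors passed the expression filter and all 50 rose in siMondoA against siMlx cells, where 18.9% of all tested genes rose. Their libraries did not overlap, as was so in this direction for 22.8% of all tested genes. The median log2 ratio was 2.59 (3.04 without siMlx library 1). The list was chosen with earlier results of these data known, so its count is not an independent result. In it 1 member had at most 3 counts in a group. The effectors summed to 11241, 10566 and 13819 CPM in siMondoA libraries, to 2906, 1689 and 1943 CPM in siMlx libraries and to 8500, 5818 and 7225 CPM in siControl libraries. The siControl mean lay between the knockdowns for 49 of the 50, the exception being PARP12. Length-scaled levels (RPKM) were highest for IFI6, at 703 RPKM in siMondoA and 107 RPKM in siMlx cells, and for the ubiquitin-like modifier ISG15, at 663 RPKM in siMondoA and 109 RPKM in siMlx cells. Levels were lowest for CMPK2, at 0.168 RPKM in siMondoA and 0.00438 RPKM in siMlx cells. Between 49 and 50 rose under the alternatives run, and 50 with each single library of the contrast left out. Reads of IFITM, GBP and HLA genes can be split between near-identical copies, so their values are uncertain.

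**Figure D2:**
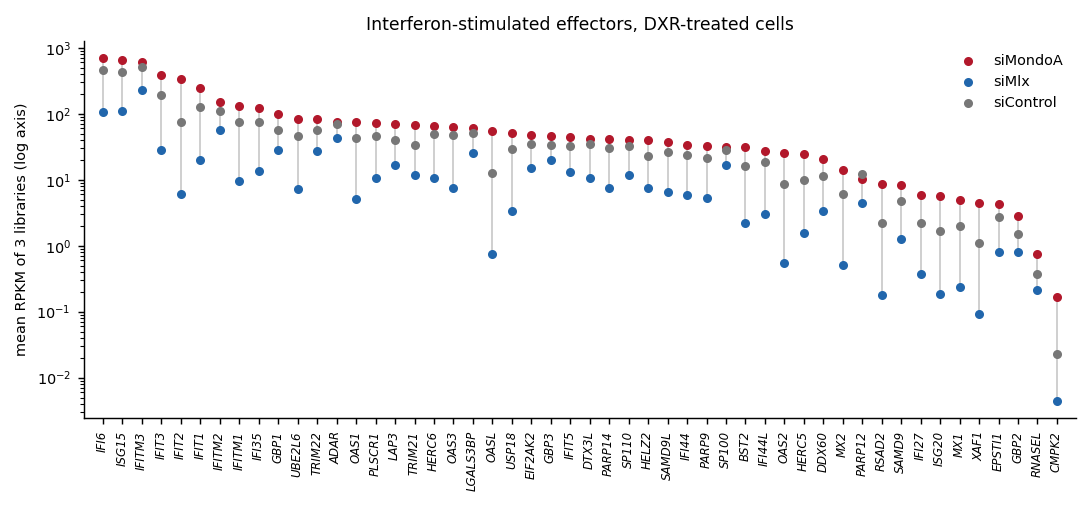
Mean RPKM over 3 libraries (log axis) of the 50 interferon-stimulated effectors in DXR-treated cells, ordered by their siMondoA level, with siMondoA in red, siMlx in blue and siControl in grey. The siMondoA point is above the siMlx point for all 50 genes.

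The 14 largest rises, among genes whose higher group averaged 5 CPM or more and whose libraries did not overlap, were led by listed effectors. OASL, an antiviral protein of the 2'-5'-oligoadenylate synthetase family, had 109, 86.5 and 165 CPM in siMondoA, against 3.49, 0.348 and 1.08 CPM in siMlx cells. The lowest siMondoA library was far above the highest siMlx library, and the log2 ratio was 6.25 (SE 0.44, adjusted p = 9.07e-10), or 76.2-fold. IFIT2, which binds foreign RNA, had 1145, 979 and 1499 CPM in siMondoA, against 26.1, 22.7 and 18.9 CPM in siMlx cells, 53.6-fold (log2 5.74, SE 0.24, adjusted p = 4.61e-13). OAS2, which makes the activator of RNase L, had 148, 117 and 215 CPM in siMondoA and 6.63, 1.94 and 2.16 CPM in siMlx cells, a log2 ratio of 5.52. Of the siMlx libraries, library 1 was the highest for each of these 3 genes. Without it the ratio was 7.41 for OASL and 6.28 for OAS2.

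GBP4, a guanylate-binding protein with close paralogs, had 13, 6.99 and 21.4 CPM in siMondoA and 0.116, 0.348 and 0.324 CPM in siMlx cells (log2 5.65). TNFSF10, the death ligand TRAIL, had 5.45, 2.63 and 8.59 CPM in siMondoA and 0.291, 0.0498 and 0 CPM in siMlx cells (log2 5.60, SE 0.67, adjusted p = 5.90e-06), the siMlx value resting on 6 counts. The rest of the 14 largest rises were RSAD2 (5.57), which blocks viral release, XAF1 (5.56), BATF2 (5.54), the chaperone RTP4 (5.16), the exonuclease ISG20 (4.88), the GTPases MX2 (4.79) and MX1 (4.37), the lysosomal transporter SLC15A3 (4.11) and the immunoproteasome subunit PSMB9 (4.02), all as log2 ratios. Without siMlx library 1 the ratios of TNFSF10, RTP4, MX2 and SLC15A3 were 7.43, 6.20, 5.53 and 5.22, and without siMlx library 2 that of XAF1 was 4.93. TRIM21, an antibody receptor and ubiquitin ligase, LAP3 and IFI35 were among the 6 listed effectors with the smallest p, with log2 ratios of 2.47, 2.04 and 3.13.

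The signalling layer above these effectors moved less and not in 1 direction. Of 25 tested receptors, kinases, STATs, IRFs and feedback genes, 17 rose and 3 fell (median 0.72), against 18.9% and 20.0% of all tested genes. STAT2, a subunit of the interferon-activated complex, had 230, 224 and 294 CPM in siMondoA, against 53.7, 47.3 and 48.4 CPM in siMlx cells (log2 2.33, SE 0.14, adjusted p = 1.10e-10). IRF2 and IRF1, which bind the response element, rose by 1.86 and 1.47, STAT3 rose by 0.74 and the phosphatase PTPN1 by 0.59. The largest fall was that of IFNGR1, the ligand-binding chain of the interferon gamma receptor, at 6.57, 5.88 and 5.4 CPM in siMondoA, against 25.5, 25.9 and 27.4 CPM in siMlx and 20.8, 21.2 and 20.3 CPM in siControl cells. Its log2 ratio was -2.14 (SE 0.09, adjusted p = 3.83e-13), with siMondoA libraries below both other groups.

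Most nucleic acid sensors and antigen presentation genes rose as well. Of 21 tested sensing genes, 12 rose and 3 fell (median log2 ratio 0.54), where 18.9% of all tested genes rose and 20.0% fell. The double-stranded RNA receptors TLR3 and IFIH1 rose by 3.47 and 3.58, TRIM25, which activates RIG-I, by 2.04 and the DNA sensor IFI16 by 1.81. ZCCHC3, a co-sensor of RNA and DNA, was at 13.3, 13.2 and 11.4 CPM in siMondoA and at 32.2, 33.3 and 33.3 CPM in siMlx cells (log2 -1.38, SE 0.08, adjusted p = 3.14e-11). Of 20 tested genes of MHC class I antigen presentation, 18 rose and none fell, with a median of 0.71. The peptide transporter subunits TAP1 and TAP2 rose by 2.20 and 1.72, the immunoproteasome subunit PSMB8 by 1.39, its activator PSME2 by 0.94 and HLA-E by 0.93.

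The core of the interferon-stimulated response element was more frequent in promoters of genes that rose. It was present for 79 of 380 genes that were higher by at least 2-fold and have a RefSeq window (20.8%), for 3 of 167 that were lower by at least 2-fold (1.8%), for 429 of 10528 tested genes (4.07%) and for 1195 of all 27305 genes with a window (4.38%). A gene counts as holding a motif when any of its windows does. Among effectors the share was 30 of 41 (73.2%) and among antigen presentation genes 11 of 16 (68.8%). It was 1 of 18 (5.56%) among interferon receptors, JAK-STAT and feedback genes and 2 of 17 (11.8%) among nucleic acid sensing genes. The carbohydrate response element was present for 0 of 380 higher genes, for 1 of 167 lower genes (0.599%), TXNIP, and for 15 of 10528 tested genes (0.142%). The E-box CACGTG was present for 42 of 380 (11.1%) higher and 22 of 167 (13.2%) lower genes, against 1311 of 10528 tested (12.5%). These are letter matches in fixed windows, and binding was not measured.

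**Figure D3:**
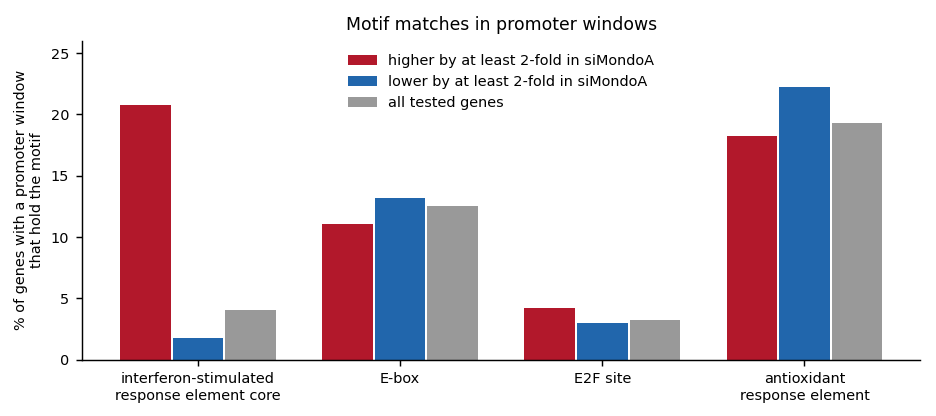
Share of genes, in percent of those with a RefSeq promoter window, whose window holds each of 4 motifs on either strand; bars are genes at least 2-fold higher in siMondoA, genes at least 2-fold lower, and all tested genes. The interferon-stimulated response element core is the motif whose share stands apart, at 20.8% of the higher genes against 4.07% of all tested.

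The largest falls were smaller than the largest rises and came from genes of varied function. After MLXIP they were KRT81, a hair keratin, at 1.4, 1.42 and 0.936 CPM in siMondoA and 10.5, 6.12 and 5.35 CPM in siMlx cells (log2 -2.53, SE 0.49), and TNFRSF10D. TNFRSF10D, a decoy receptor that binds TRAIL without passing on the death signal, was at 78.8, 85.2 and 61.5 CPM in siMondoA, against 383, 448 and 435 CPM in siMlx cells and 131, 283 and 222 CPM in siControl cells (log2 -2.49, SE 0.21, adjusted p = 1.53e-08). BTBD10 was at 11.1, 11.7 and 11.2 CPM in siMondoA and 62, 65.8 and 62.8 CPM in siMlx cells (log2 -2.49, SE 0.07). In this gene the siControl libraries, at 54.9, 59.6 and 58.7 CPM, lay close to siMlx. The others were GNPDA1 (-2.21), which deaminates glucosamine 6-phosphate, PRRC1 (-2.17), IFNGR1, the mitotic inhibitor kinase WEE1 (-2.07), LINC00641 (-2.01), GNPTAB (-1.97), which tags enzymes for the lysosome, B4GALT6 (-1.94), a lactosylceramide synthase, TAPT1 (-1.93), RPIA (-1.92), the ribose 5-phosphate isomerase, and PALD1 (-1.80).

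The changes best resolved from replicate error were another set, chosen after their values were seen as the 10 smallest p in each direction. DCTD, the dCMP deaminase that supplies dUMP for thymidylate, was at 149, 138 and 148 CPM in siMondoA, against 26.2, 26.4 and 25.2 CPM in siMlx cells (log2 2.48, SE 0.06, adjusted p = 3.97e-16). Its siControl libraries, at 135, 139 and 146 CPM, lay with siMondoA. MRFAP1 (1.70), the Notch effector RBPJ (1.87), the kinase HIPK1 (1.33), the prolyl isomerase FKBP3 (1.42), the ubiquitin ligase scaffold CUL5 (1.72), EI24 (1.26) and SYNJ2BP (1.75) followed as rises beside MLX and IFIT2. Among falls, PRRC1 was at 34.4, 30.6 and 30.6 CPM in siMondoA, against 144, 143 and 144 CPM in siMlx cells (SE 0.06, adjusted p = 1.20e-15). The small GTPase RAP1B (-1.33), BLOC1S6 (-1.29), a subunit of a lysosome-related organelle complex, and the focal adhesion protein TNS3 (-1.63) followed, beside MLXIP, BTBD10, GNPDA1, GNPTAB, IFNGR1 and PRDX3.

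Among redox genes, PRDX3, the mitochondrial peroxiredoxin that removes hydrogen peroxide, was lowest in siMondoA cells. PRDX3 was at 75, 69.5 and 71.4 CPM in siMondoA, against 181, 178 and 173 CPM in siMlx and 194, 197 and 192 CPM in siControl cells (log2 -1.30, SE 0.05, adjusted p = 3.93e-13). Of 24 tested peroxiredoxins and thioredoxin system genes, 9 fell and 3 rose (median -0.07), where 20.0% of all tested genes fell and 18.9% rose. The glutaredoxin GLRX rose by 0.59 and the peroxidase GPX8 by 0.30.

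Autophagy genes moved in both directions. Of 49 tested genes of autophagosome formation and fusion, 19 rose and 12 fell (median log2 ratio 0.07), against 18.9% and 20.0% of all tested genes. RUBCN (listed as KIAA0226), the gene of Rubicon, which restrains autophagosome fusion, was at 59.8, 57.1 and 78.9 CPM in siMondoA, against 24.1, 21.5 and 23.9 CPM in siMlx cells and 49.8, 49 and 53.7 CPM in siControl cells. The siMondoA libraries lay above both other groups, and the log2 ratio to siMlx was 1.49 (SE 0.10, adjusted p = 3.18e-10). The cargo receptor CALCOCO2 rose by 0.87, the fusion protein STX17 by 0.68 and the lipid transfer protein ATG2B by 0.53. TFEB, the master regulator of lysosomal genes, was at 7.92, 8.26 and 8.54 CPM in siMondoA and 8.61, 7.76 and 8.75 CPM in siMlx cells, overlapping (log2 -0.02, SE 0.11, adjusted p = 0.893). Of 55 lysosomal genes, 10 rose and 13 fell (median -0.04), shares near those of all tested genes. PPT1, a thioesterase, rose by 0.48, and HEXA, a hexosaminidase subunit, and ATP6V1B2, a proton pump subunit, fell by 0.58 and 0.48. Of 30 tested genes of mitophagy, mitochondrial dynamics and biogenesis 7 rose and 5 fell (median 0.01). The mitophagy receptors BCL2L13 and BNIP3L rose by 0.81 and 0.61. BNIP3L was at 235, 239 and 239 CPM in siMondoA and 142, 163 and 163 CPM in siMlx cells.

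Of 76 tested nuclear genes of oxidative phosphorylation, 10 rose and 5 fell (median log2 ratio -0.00), shares below the 18.9% and 20.0% of all tested genes. There were 3 risers and 3 fallers without siMlx library 1, 5 and 2 without siMondoA library 2, and 3 fallers without siMlx library 3 or siMondoA library 1. Among them NDUFA9, of complex I, had 131, 122 and 143 CPM in siMondoA and 79.1, 83.4 and 80.3 CPM in siMlx cells (log2 0.71, SE 0.06, adjusted p = 9.03e-09). Among enzymes of deoxynucleotide supply, SAMHD1, which degrades dNTPs and is interferon-induced, was at 256, 215 and 281 CPM in siMondoA, against 65.6, 38.1 and 37.4 CPM in siMlx cells (log2 2.42, SE 0.23, adjusted p = 6.42e-08), and the kinase CMPK1 rose by 1.25. RRM2, the S-phase subunit of ribonucleotide reductase, was at 13.5, 24.8 and 16 CPM in siMondoA and 36.9, 44 and 34.9 CPM in siMlx cells (log2 -1.09, SE 0.22, adjusted p = 0.000505). In all, 4 of the 16 tested rose and 3 fell (median -0.12).

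Of 20 tested genes of serine synthesis and the folate cycle, 4 rose and 6 fell (median log2 ratio -0.13). Shares over all tested genes were 18.9% and 20.0%. MTHFD2, the mitochondrial folate dehydrogenase, was at 48.9, 37.5 and 45.7 CPM in siMondoA and at 102, 87.7 and 95.9 CPM in siMlx cells (log2 -1.11, SE 0.09, adjusted p = 4.47e-09). In sphingolipid synthesis 8 of 21 rose and 6 fell (median 0.06), with the largest rise in SPTLC3, a serine palmitoyltransferase subunit, at 16.7, 22.3 and 16 CPM in siMondoA and 3.14, 6.32 and 3.89 CPM in siMlx cells (log2 2.03, SE 0.21, adjusted p = 2.21e-07). SGMS1, which makes sphingomyelin, rose by 1.51. Of 29 tested genes of glycolysis and pyruvate fate 4 rose and 8 fell (median -0.08). The fallers numbered 5 without siMlx library 2 or siMlx library 3 and 3 in a fit of the 6 libraries alone, and the risers 8 with the replicate block in the 6 libraries. PDK2, a brake on pyruvate oxidation, and PFKM, a phosphofructokinase, rose by 0.95 and 0.49, and the glucose transporter SLC2A3 fell by 0.55. Of 34 tested genes of sterol and fatty acid synthesis 5 rose, ELOVL6 and MSMO1 among them by 0.65 and 0.88, 2 fell and 27 did not pass (median 0.01), where 39.0% of all tested genes passed. The risers numbered 8 without siMondoA library 2, the fallers 1 without siMlx library 1 or siMlx library 3 and 4 without siMlx library 2 or siMondoA library 1, and 10 rose and 8 fell with the same block.

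Of 55 genes of G2/M and mitosis, 18 were lower in siMondoA than in siMlx cells with DXR, 37 did not pass the test and none was higher (median log2 ratio -0.44), where 20.0% of all tested genes fell. The mitotic genes numbered 9 lower and 1 higher without siMondoA library 1, 10 lower without siMlx library 2, 33 lower and 3 higher without a low-count filter, and 32 lower and 2 higher with the replicate number as a block in the 6 libraries. Of 56 replication and E2F genes, 6 rose and 9 fell (median -0.09), shares below the 18.9% and 20.0% of all tested genes, or 10 and 17 with the same block. CCNA2, the S and G2 phase cyclin, was at 5.45, 8.26 and 5.95 CPM in siMondoA, against 13.8, 15 and 14.4 CPM in siMlx cells and 28.2, 34.7 and 26.1 CPM in siControl cells (log2 -1.13, SE 0.23, adjusted p = 0.000599). The 3 groups did not overlap. The spindle checkpoint gene MAD2L1, the mitotic activator CDC20 and the transcription factor FOXM1 fell by 0.86, 0.84 and 0.66, E2F3 by 0.88 and cyclin D1 (CCND1) by 0.53.

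In untreated cells most genes of both lists fell. There 50 of 56 replication genes fell (30.4% of all genes did) and 2 rose (28.5% of all), with a median of -1.28, and 54 of 55 mitotic genes fell with a median of -1.28. Against the siControl + DXR mean, median mitotic log2 levels were -1.94 to -1.17 in siMondoA + DXR and -1.09 to -0.90 in siMlx + DXR libraries. Untreated they were 0.19 to 0.97 in siMondoA, 1.79 to 2.14 in siMlx and 1.78 to 2.17 in siControl libraries. With DXR the siControl mean lay between the knockdowns for 7 replication and 2 mitotic genes (42.8% of all genes). A test of the difference between the DXR and the untreated ratio called 48 replication genes higher with DXR (15.0% of all genes) and none lower (14.3% of all). It called 36 mitotic genes higher and none lower. Untreated cells may have been harvested at another time after transfection, and the drug and that time cannot be told apart in this test. The 36 became 16 without siMondoA + DXR library 2, while the 48 ranged from 45 to 49 over the libraries left out. POLA2, a subunit of the DNA polymerase alpha-primase complex, changed sides. With DXR it was at 27.7, 29.1 and 33.5 CPM in siMondoA and 20.6, 23.2 and 20.9 CPM in siMlx cells (log2 0.48). Untreated it had means of 20.1 CPM in siMondoA and 51.5 CPM in siMlx cells (log2 -1.37). The difference was 1.85 (SE 0.15, adjusted p = 9.39e-08). For MAD2L1 the untreated ratio was -2.73 and the difference 1.87 (adjusted p = 8.09e-06), and for CCNA2 they were -2.08 and 0.95 (adjusted p = 0.0171, and 0.0952 without siMondoA + DXR library 2).

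**Figure D4:**
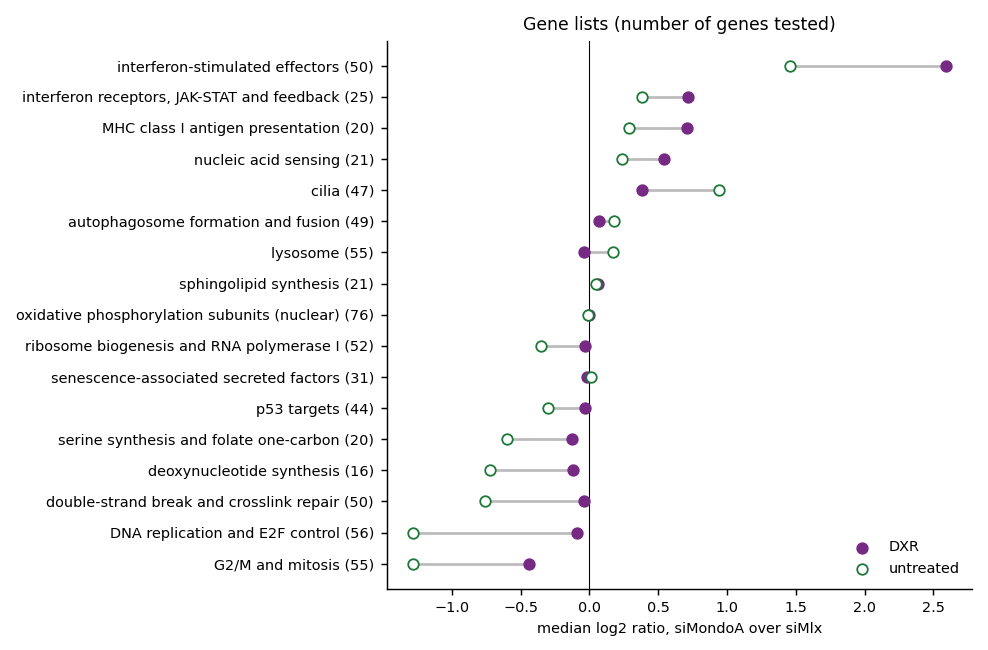
Median log2 ratio of siMondoA over siMlx for 17 gene lists, with DXR (filled) and untreated (open); the number of genes tested is in brackets. The median of the effectors is 2.59 with DXR and 1.46 untreated, and the medians of replication, mitosis and repair are -0.09, -0.44 and -0.04 with DXR and -1.28, -1.28 and -0.76 untreated.

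Of 50 tested genes of double-strand break and crosslink repair, 10 rose and 6 fell with DXR (median -0.04). The fallers numbered 10 with the replicate block in the 6 libraries. Untreated 4 rose and 34 fell (median -0.76), and 32 had a higher ratio with DXR while none had a lower one. Over all tested genes 18.9% rose and 20.0% fell with DXR, and 28.5% and 30.4% did untreated. The ratio was higher with DXR for 15.0% of all tested genes and lower for 14.3%. CHEK1, the checkpoint kinase, was at 9.6, 11.4 and 8.81 CPM in siMondoA and 16.7, 15.9 and 15.7 CPM in siMlx cells with DXR (log2 -0.69), and its untreated ratio was -1.20. ATR, its upstream kinase, rose by 0.48 with DXR and was at -0.08 untreated (adjusted p = 0.308). The end-joining ligase LIG4 fell by 0.61 with DXR.

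The p53 and cell death lists split. Among 44 tested p53 targets there were 9 risers and 14 fallers (median -0.03), where 18.9% of all tested genes rose and 20.0% fell. CDKN1A, the gene of p21, overlapped, at 3011, 3250 and 3138 CPM in siMondoA and 2959, 3446 and 3326 CPM in siMlx cells (log2 -0.05, SE 0.08, adjusted p = 0.635). Among 7 tested CDK inhibitors 1 rose, CDKN1B, by 0.23. APAF1, the core of the apoptosome, was at 13.5, 13.4 and 13.7 CPM in siMondoA, against 27.1, 26 and 25.7 CPM in siMlx cells (log2 -0.95, SE 0.06, adjusted p = 5.51e-10). PMAIP1, the BH3-only protein NOXA, rose by 1.32 with DXR and fell by 0.75 untreated, a difference of 2.07 (SE 0.23, adjusted p = 2.07e-06). Of 29 genes of the BCL2 family and death receptors 11 rose and 8 fell (median 0.10), and the risers numbered 7 without siMlx library 2, without siMlx library 3 or without siMondoA library 1. The apoptosis inhibitor BIRC2 rose by 0.85, TRIM22, an interferon-induced p53 target, rose by 1.58, and TRAIL rose while its decoy receptor TNFRSF10D fell.

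Of 31 tested secreted senescence factors, 7 fell and 2 rose (median -0.02), where 20.0% of all tested genes fell and 18.9% rose. The risers numbered 1 without siMondoA library 2 and 4 without siMondoA library 3, and with the replicate block in the 6 libraries 11 fell and 5 rose. The plasminogen activator PLAU was at 171, 193 and 169 CPM in siMondoA, against 261, 290 and 293 CPM in siMlx cells (log2 -0.66, SE 0.08, adjusted p = 3.27e-06), and the activin subunit INHBA and the cytokine IL11 fell by 0.78 and 1.12. IL6 rose, with 11.7, 10.8 and 13.3 CPM in siMondoA and 7.27, 7.96 and 7.99 CPM in siMlx cells (log2 0.63, SE 0.18, adjusted p = 0.00811). LMNB1, a lamin whose loss marks senescent cells, was at 4.44, 5.98 and 4.35 CPM in siMondoA, against 11.5, 10.8 and 8.37 CPM in siMlx cells and 14.5, 15.8 and 12.9 CPM in siControl cells (log2 -1.05, SE 0.23, adjusted p = 0.00121). Its untreated ratio was -1.76, and the difference of 0.71 had an adjusted p of 0.0635, or 0.0413 with the replicate block and 0.00321 without untreated siMondoA library 3. Of 21 tested immediate early factors 6 rose and 5 fell (median 0.08), with KLF4 higher by 2.46 and ATF3 by 1.12. Of 21 tested genes of NF-kB, its inhibitors and targets 6 rose and 4 fell (median 0.08), with 3 risers without siMlx library 1 and a median of -0.05 without siMlx library 3. The feedback inhibitor TNFAIP3 (A20) rose by 0.98 and the ubiquitin ligase BIRC3 by 1.84. Of 48 tested matrix genes 5 rose and 8 fell (median -0.10), with FBN2 and ADAMTS5 lower by 0.37 and 0.77. With single libraries left out 3 to 6 rose and 4 to 11 fell, and with the replicate block in the 6 libraries 12 and 16. Of 19 tested genes of lamins and the inner nuclear membrane 1 rose and 5 fell (median 0.04), or 3 to 6 fell with single libraries left out. The inner nuclear membrane protein SUN2 fell by 0.54.

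Cilium genes were higher with siMondoA. Of 47 tested, 24 rose and 2 fell with DXR (median 0.38), against 40 and 1 untreated (median 0.94). With DXR 26 had a lower ratio and none had a higher one. Over all tested genes 18.9% rose and 20.0% fell with DXR, and 28.5% and 30.4% did untreated. The ratio was lower with DXR for 14.3% of all tested genes and higher for 15.0%. IFT88, a carrier of intraflagellar transport, had 19.2, 20.6 and 19.3 CPM in siMondoA and 8.72, 10.6 and 10.3 CPM in siMlx cells with DXR (log2 1.00, SE 0.10, adjusted p = 1.72e-07), and its untreated ratio was 1.58. IFT57, of the same transport complex, and TCTN2, of the transition zone, rose by 0.50 and 0.62. Of 52 genes of ribosome biogenesis 8 rose and 11 fell with DXR (median -0.03), against 2 and 38 untreated (median -0.35), and 31 had a higher ratio with DXR. The risers with DXR numbered 4 without siMlx library 1 and 5 without siMlx library 2 or siMondoA library 3, and the fallers 7 without siMlx library 1 or siMondoA library 2 and 6 without siMlx library 3. The 2 cilium fallers became 0 without siMlx library 1, siMondoA library 1 or siMondoA library 2 and 1 without siMlx library 3. POLR1F (listed as TWISTNB), a subunit of RNA polymerase I, fell by 0.71 and RRS1, an assembly factor, by 0.48. Of variant and clustered histones, H2BC21 (listed as HIST2H2BE) was at 44, 42.6 and 42.5 CPM in siMondoA and 22.2, 21.7 and 24.3 CPM in siMlx cells (log2 0.92), and H2AZ1 (listed as H2AFZ) fell by 0.62. The lists not detailed had medians within -0.10 to 0.37.

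Stress pathways outside DNA damage gave mixed counts. Of 21 tested NRF2 targets and glutathione genes 5 rose and 1 fell (median 0.11), against 18.9% and 20.0% of all tested genes. There were 2 risers without siMlx library 3 or siMondoA library 2, 3 without siMondoA library 1, and 8 with the replicate block. GCLM, which regulates glutathione synthesis, and KEAP1, which restrains NRF2, rose by 0.41 and 0.25, and the haem oxygenase HMOX1 fell by 0.58. Of 26 tested genes of endoplasmic reticulum stress 7 rose and 5 fell (median 0.05). ERN1, the gene of the stress sensor IRE1, was at 3.14, 3.39 and 2.92 CPM in siMondoA, against 10.5, 10.3 and 9.78 CPM in siMlx cells (log2 -1.69, SE 0.15, adjusted p = 1.85e-08), and ATF6, another sensor, rose by 0.58. Of 27 tested HIF targets and subunits 4 rose and 8 fell (median 0.02), with 8 risers with the replicate block in the 6 libraries. HIF1A, the oxygen-regulated factor, fell by 0.51 and its partner ARNT rose by 0.89. Of 37 tested ATF4 targets 7 rose and 13 fell (median -0.07), with 4 risers without siMondoA library 1. Among the risers were WARS1, a tRNA synthetase that interferon gamma also induces, by 1.26, and the secreted hormone STC2, by 0.44.

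Across all genes the contrast with DXR was set beside the untreated contrast, which shares no library with it. The harvest time may also differ between the conditions, and it cannot be told apart from the drug. The median size of the log2 ratio was 0.23 with DXR and 0.37 untreated, and 5331 genes were called with DXR (39.0%) and 8060 untreated (58.9%). Genes called in the same direction in both conditions numbered 4001, which is 75.1% of the DXR calls and 49.6% of the untreated calls, while 191 were called in opposite directions. The ratio itself differed between conditions for 4007 genes (29.3%), with 2047 higher and 1960 lower with DXR. In untreated cells 7.42% of genes were at least 2-fold higher and 7.00% at least 2-fold lower. Of these 1972 genes, 1167 (59.2%) had a called difference toward 0 with DXR. Of the 741 with at least a 2-fold change with DXR, 151 (20.4%) had one away from 0. Each list was picked on a ratio that enters the difference, which favours these directions, so no conclusion is drawn from the shares. Over all genes 29.3% had a called difference in either direction.

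**Figure D5:**
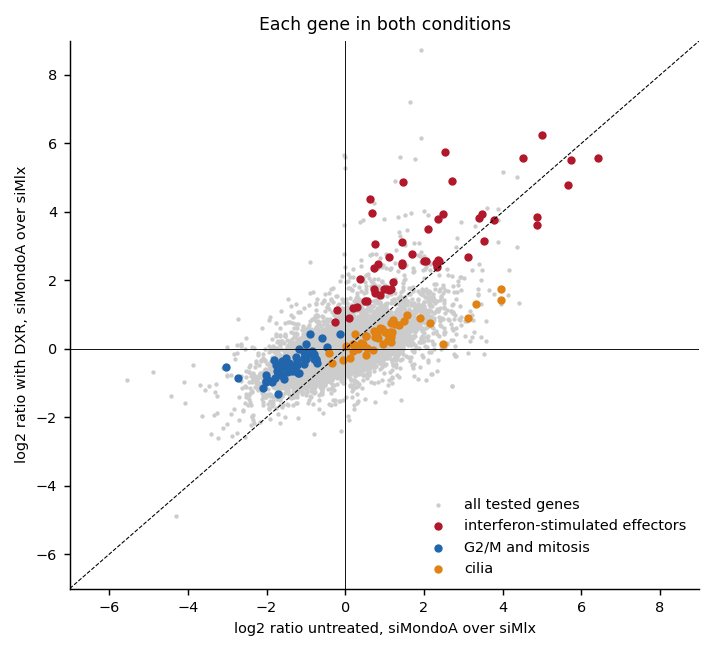
Log2 ratio of siMondoA over siMlx for each tested gene, with DXR on the vertical and untreated on the horizontal axis; the dashed line marks equal ratios. Interferon-stimulated effectors (red) lie above 0 with DXR for all 50 genes. All 55 mitotic genes (blue) lie left of 0, where 54 of them fell untreated. A lower ratio with DXR was called for 26 of 47 cilium genes (orange) and for 14.3% of all tested genes.

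Among genes past the threshold of the difference test that averaged 5 CPM or more in at least 1 of the 4 groups, the 6 with the largest gain in ratio were GBP4, BATF2, MX1, ISG20, LGALS9 and HERC5, of which 3 (MX1, ISG20 and HERC5) are listed effectors. With DXR all 50 effectors rose (18.9% of all tested genes did). Untreated 36 of the 50 did, with a median of 1.46 (28.5% of all genes rose). The ratio was called higher with DXR for 25 of the 50 (19 to 28 over the libraries left out), against 15.0% of all genes. It was called lower for none (14.3% of all), or for 3 without a low-count filter. HERC5, the ligase for ISG15, was at 85.8, 75 and 108 CPM in siMondoA and 7.68, 5.42 and 4.16 CPM in siMlx cells with DXR (log2 3.97), and had means of 4.32 CPM in siMondoA and 2.73 CPM in siMlx cells untreated, a difference of 3.29 (SE 0.53, adjusted p = 0.000115). MX1, ISG20, LGALS9 and GBP4 had differences of 3.75, 3.41, 3.32 and 5.68, but rest on 29, 46, 20 and 4 untreated counts in siMondoA and 18, 16, 14 and 4 in siMlx cells. The MX1 difference was 3.38 (adjusted p = 0.0549) and that of ISG20 3.04 (adjusted p = 0.0864) without untreated siMlx library 2, and that of LGALS9 was 2.66 (adjusted p = 0.134) without untreated siMlx library 1. MX1 had 4.50 without untreated siMondoA library 2. The GBP4 call (adjusted p = 0.0482) was lost without any 1 of the 3 siMlx + DXR, the 3 untreated siMondoA libraries, siMondoA + DXR library 1 or untreated siMlx libraries 1 and 2, with an adjusted p between 0.0501 and 0.191. BATF2 had a difference of 3.76 (SE 0.77, adjusted p = 0.00105). IFIT2 had a difference of 3.21 (SE 0.42, adjusted p = 1.24e-05), IRF1 of 1.46 (SE 0.16, adjusted p = 2.07e-06) with an untreated ratio of 0.01, and TLR3 of 1.89. The only effector that fell untreated was ADAR, an RNA-editing enzyme.

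Under the same limits, none of the genes with the 6 largest losses in ratio was on the interferon lists. TNFRSF11B, the decoy receptor osteoprotegerin, was at 27.8, 25 and 40.9 CPM in siMondoA and 19.1, 24.4 and 29.4 CPM in siMlx cells with DXR, overlapping (log2 0.36, adjusted p = 0.151, and 0.0034 with the replicate block in the 6 libraries). Untreated it had means of 39.4 CPM in siMondoA and 4.22 CPM in siMlx cells, a log2 ratio of 3.22, and the difference was -2.86 (SE 0.30, adjusted p = 1.41e-06). LMOD1, an actin nucleator of muscle, was at 88, 78.9 and 80.9 CPM in siMondoA and 71.9, 50.3 and 61.6 CPM in siMlx cells with DXR (log2 0.43, adjusted p = 0.0642, and 3.00e-05 with that block), and its untreated ratio was 2.82. Without siMlx + DXR library 1 the LMOD1 ratio passed the test (0.56, adjusted p = 0.0355). UNC13A, of synaptic vesicle release, WNT11, a Wnt ligand, and the cilium genes SPEF1 and TTC29 had differences of -3.08, -2.63, -2.22 and -2.33. For WNT11 the difference was -4.05 without untreated siMlx library 2.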

How the data were processed

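Stranded mRNA libraries were made from total RNA of 18 samples, per the labels' protocols, and the authors deposited raw gene counts and, in another table, RPKM (counts scaled to gene length and library size). The submitters' processing notes name bcl2fastq, TopHat2 2.1.1 and GRCh38, while the program that counted reads and its use of strand are not named in the sources used here. Reads of overlapping or antisense genes therefore may not be told apart. Columns were matched to samples by the names in the labels' descriptions. Of 33121 names, 23574 were current symbols, 1637 older ones and 7910 (0.292% of counts) unmatched. CPM were computed from the counts and library totals, and RPKM were used for levels between genes.

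The quasi-likelihood test of edgeR 4.0.16 (R 4.3.3, limma 3.58.1) was fitted to all 18 libraries in 6 groups of 3, with 12 residual degrees of freedom, after filterByExpr (13676 genes) and TMM scaling. Genes were called at a Benjamini-Hochberg adjusted p under 0.05 over all genes. The biological coefficient of variation was 7.4%. The difference between conditions was tested as an interaction. Ratios are siMondoA over siMlx, and every adjusted p in the text comes from edgeR unless DESeq2 1.42.0 is named. The steps were tested on simulated data with known changes.

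Members and gene lists were chosen with earlier results of these data known. Genes named were 10 set by the design, the 14 largest changes in each direction (at least 5 CPM in the higher group, no overlap), up to 6 per list with the smallest p, and the 6 largest called differences between conditions in each direction (at least 5 CPM in the highest of the 4 groups). The 10 smallest p in each direction were added after their values were seen. Some items are not reported here. Same-numbered siMondoA and siMlx libraries deviated together with DXR (correlations of 0.246, 0.167 and 0.256), so the numbers were taken to pair them. Untreated the correlations were 0.045, 0.024 and 0.21, so only the libraries numbered 3 did so there. The main fit does not use this pairing, which enters only the alternatives with a replicate block. Alternatives were RLE and upper-quartile scaling, no filter, 1 CPM in 3 libraries, DESeq2, 9 or 6 libraries, a replicate block, and each library left out. The block in the 6 libraries was chosen after seeing the data.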

Additional observations from a re-analysis of the deposited data

Results flagged for a closer look

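Each result here had a siMondoA over siMlx ratio that differed between DXR and untreated cells in edgeR's test of the difference (Benjamini-Hochberg adjusted p under 0.05), given as the DXR minus the untreated log2 ratio. All rest on 3 libraries a group.

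Interferon-related genes had a higher ratio with DXR, at 5.68 for GBP4, 3.76 for BATF2, 3.75 for MX1, 3.41 for ISG20, 3.32 for LGALS9, 3.29 for HERC5, 3.21 for IFIT2, 2.01 for PSMB9, 1.89 for TLR3, 1.63 for TRIM21, 1.46 for IRF1 and 1.06 for WARS1. The phosphatase PTPN1 had a lower ratio with DXR, at -0.96. Among genes of division and DNA supply the difference was 1.87 for MAD2L1, 1.85 for POLA2, 1.16 for RRM2, 1.13 for H2AZ1, 1.01 for MTHFD2, 0.95 for CCNA2, 0.56 for ATR, 0.51 for CHEK1 and -0.92 for DCTD.

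Called directions were opposite in the 2 conditions for 4 of these genes. PMAIP1 had log2 ratios of 1.32 with DXR and -0.75 untreated (difference 2.07), TNFAIP3 of 0.98 with DXR and -0.74 untreated (difference 1.72), POLA2 of 0.48 with DXR and -1.37 untreated, and SLC2A3 of -0.55 with DXR and 0.38 untreated (difference -0.93).

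The ratio was lower with DXR for UNC13A (-3.08), TNFRSF11B (-2.86), WNT11 (-2.63), LMOD1 (-2.39), TTC29 (-2.33), SPEF1 (-2.22), H2BC21 (-2.02), TNFRSF10D (-1.70), BNIP3L (-1.10), EI24 (-0.95), ATG2B (-0.83), INHBA (-0.78), MXD4 (-0.68), HEXA (-0.64) and IFT88 (-0.58). For TNFRSF10D, INHBA, MXD4 and HEXA this was a larger fall or a fall only called with DXR, with log2 ratios of -2.49, -0.78, -0.58 and -0.58 with DXR and -0.79, 0.00, 0.10 and 0.05 untreated. For B4GALT6, BTBD10 and PRDX3, lower in both conditions, the difference was 1.41, 0.92 and 0.81.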

How the results depend on the processing

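Counts over all genes stayed within 1.5 times the reported ones under every alternative run. With DXR the genes higher and lower numbered 2568 and 2785 with RLE scaling, 2363 and 3105 with upper-quartile scaling (43.2% higher, against 48.6%), 2533 and 2740 without a filter, 2577 and 2732 with 1 CPM in 3 libraries, 2487 and 2730 with DESeq2, 2471 and 2682 with 9 libraries and 2439 and 2269 with 6. With each library left out they ranged from 2265 to 2370 and from 2341 to 2519, with 476 to 530 and 222 to 274 at 2-fold or more. Untreated they ranged from 3550 to 3743 and from 3802 to 3953, and genes with a difference from 1786 to 2031 and from 1677 to 1949. The replicate block gave 2787 higher and 2986 lower, sharing 5322 of its 5773 calls with the fit without it, and the block in the 6 libraries, chosen after seeing the data, gave 3146 and 3131. The block changed no other call of a named gene than those of VIM, LMOD1, TNFRSF11B and LMNB1. The difference between conditions has no value with 9 or 6 libraries.

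Directions turned for uncalled ratios near 0. With single libraries left out PECAM1 ranged from -0.68 to 0.23 (0.08 and 0.02 between) and TFEB 0.01 and 0.00 with DXR, IRF1 ranged from -0.08 to 0.12 (-0.05 and -0.01 between) and INHBA from -0.02 to 0.04 (-0.00 between) untreated, and the RUBCN difference gave -0.02. The cause was not tested. Genes with few counts, among them ARRDC4, TNFSF10 and GBP4, are limited by depth.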
